A study of Mus musculus with 24 samples.

Results

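RNA was sequenced from hepatocellular carcinomas of mice 24 h after a second dose of RMC-6272, and from tumours of mice given vehicle on the same schedule. The mice were FVB/N and carried Lap-tTA and Tet-O-MYC, in which a liver promoter drives, in hepatocytes, a transactivator that switches on human MYC when doxycycline is absent. Every mouse compared here therefore had the MYC transgene on, since doxycycline was withdrawn at 4 weeks of age and tumours were looked for by imaging after a further 4 to 5 weeks. RMC-6272, a bi-steric inhibitor selective for mTOR complex 1 (mTORC1), was injected into the peritoneum at 10 mg/kg once a week in 3 libraries. Vehicle, a mixture of Transcutol, Solutol HS 15 and water given by the same route, had 3 libraries, and in both groups the first dose came 7 days before the second. Age at collection and whether replicates are separate animals or tumours are not in the labels, so p-values measure the spread between these samples, which may be technical. Of 54403 genes in the table, the 12429 with at least 1 FPKM (fragments per kilobase of transcript, scaled to library size) in at least 2 of the 6 libraries were tested.

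mTORC1 is a kinase complex that senses amino acids, growth factors and energy at the lysosome surface. When active it phosphorylates S6 kinases and the 4E-BP proteins, which favours translation, nucleotide and lipid synthesis, and it holds back autophagy and the lysosomal regulators TFEB, TFE3 and MITF. It also feeds back on the insulin pathway, where S6 kinase dampens signalling through insulin receptor substrates. MYC acts on many of the same processes through transcription, as a dimer with MAX that binds the E-box CACGTG.

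Tumours given RMC-6272 differed from vehicle tumours in much of the transcriptome. In all, 4374 genes (35.2%) passed the test (limma, Benjamini-Hochberg adjusted p under 0.05), of which 1955 (15.7%) were higher and 2419 (19.5%) lower with RMC-6272. At least a 2-fold change was reached by 924 of the higher and 882 of the lower genes, and at least a 4-fold change by 130 and 61. Values of the groups did not overlap in 52.0% of genes. All differences are on the log2(FPKM + 1) scale, RMC-6272 minus vehicle, with their standard error, which understates the change of genes near or under 1 FPKM. The median over all genes was -0.04. The share of falls varied with expression level. Between 20 and 100 FPKM, 31.9% of 2181 genes fell and 10.5% rose, while under 5 FPKM 19.4% of 5368 genes rose and fewer fell. Protein-coding genes made up 90.9% of the rises and 94.7% of the falls, and long noncoding types gave 102 rises and 36 falls.

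**Figure D1:**
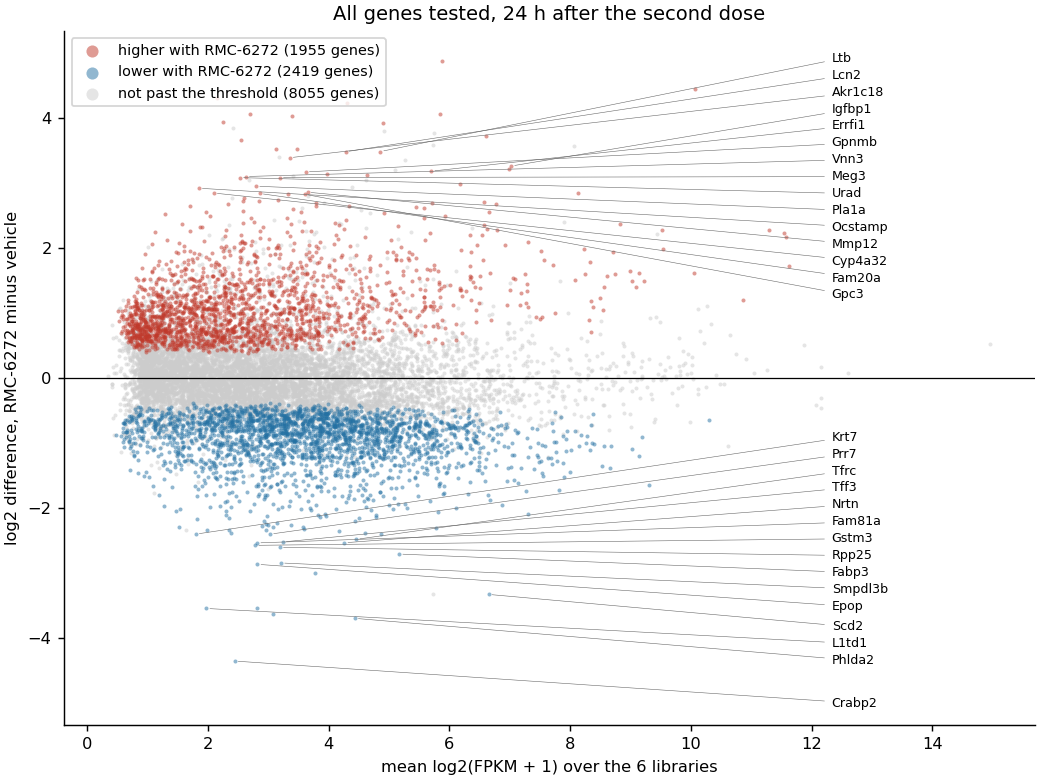
Mean level of each gene over the 6 libraries (x axis, log2(FPKM + 1)) against its difference between RMC-6272 and vehicle tumours (y axis, log2). Each point is 1 gene, coloured by the test, with 1955 higher and 2419 lower, and the labelled genes are the 15 largest rises and falls outside the lists of cell cycle, liver function and MYC-linked biosynthesis genes.

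The libraries held 33050000 to 37320000 reads with RMC-6272 and 31090000 to 38020000 reads with vehicle, to 4 digits. RMC-6272 replicate 2 stood apart from its group, correlating at 0.925 and 0.928 with replicates 1 and 3, which correlated at 0.980 with each other (Pearson r of log2 values across genes). The median difference of 290 liver function genes from the vehicle mean was 0.85, 2.42 and 0.64 in RMC-6272 replicates 1, 2 and 3. In bulk tumour RNA, fewer cells of a type and less RNA per cell cannot be told apart. Leaving out RMC-6272 replicate 2 gave 4314 genes, including 1712 of the 1955 rises and 2073 of the 2419 falls. Without RMC-6272 replicate 1 the count was 2589, without vehicle replicate 2 it was 2807 and without vehicle replicate 3 it was 2541. The description codes of the groups differ, so anything tied to those codes cannot be told apart from treatment. In 163 cell cycle genes the median was -1.33 and 148 fell, and in 156 MYC-linked biosynthesis and lipid genes it was -1.05 and 122 fell. What follows describes other gene lists, which can share members with those. The largest rises and falls are given outside them. Beside the fit of the 6 libraries, 2 wider fits are cited where they end or give a call. These are that of all 24 libraries of the series, and that of the 20 outside the doxycycline and RMC-4627 groups. Both share 1 estimate of the spread over their groups and leave the difference as it is.

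In the fit of the 6 libraries, the lists that moved most in 1 direction were nuclear transport and cytosolic aminoacyl-tRNA synthetases among the falls and glucocorticoid-induced genes among the rises. Across all lists, counts are to be read beside the 15.7% of tested genes that rose and the 19.5% that fell. Genes can stand in more than 1 list.

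**Figure D2:**
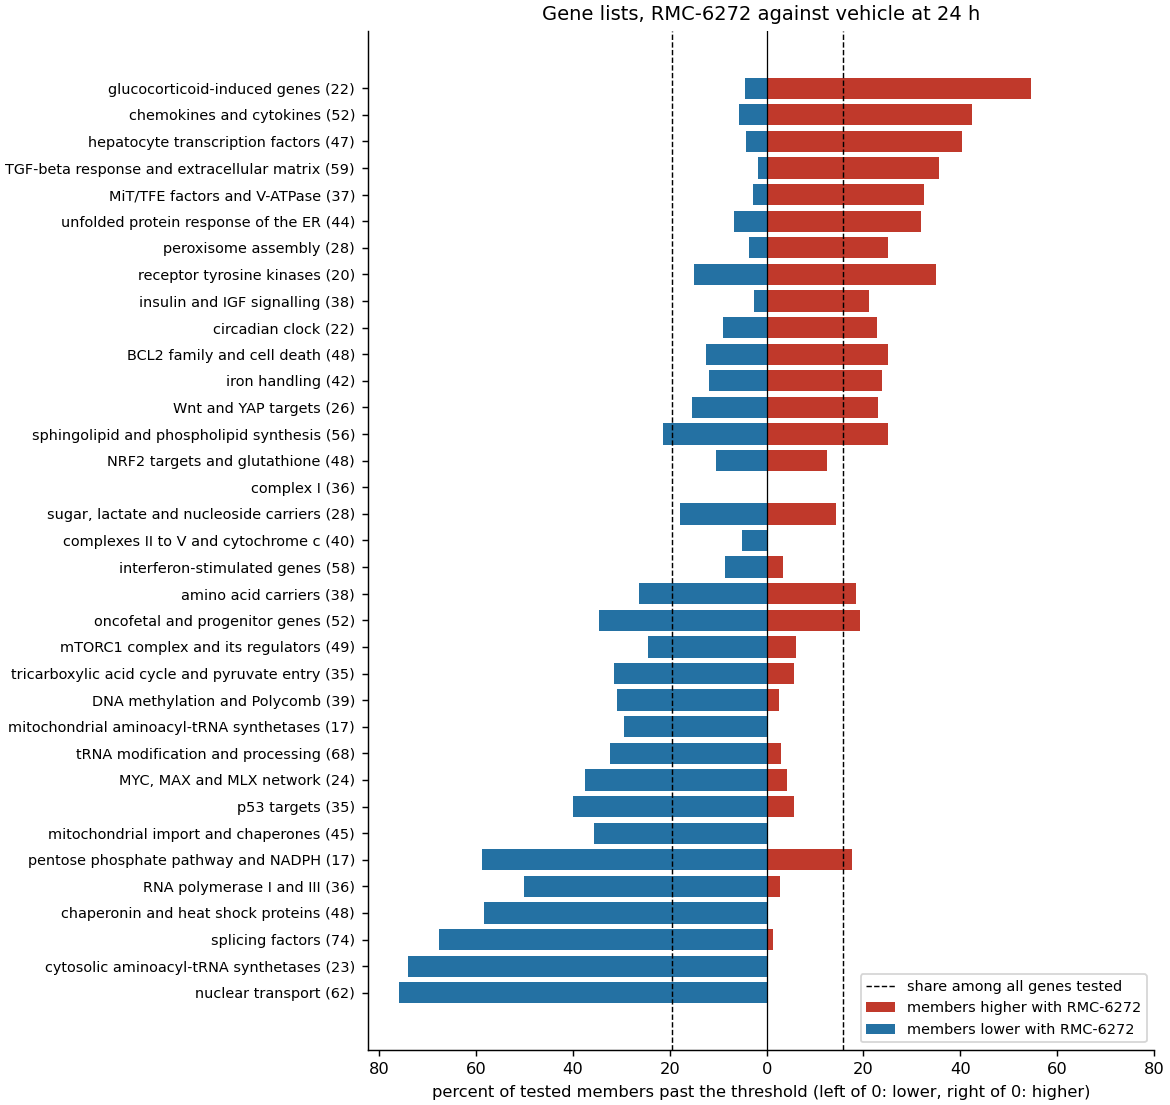
Share of the tested members of each of 35 gene lists that were higher (right of 0) or lower (left of 0) with RMC-6272 than with vehicle, in percent, with the number tested in brackets. Dashed lines mark the shares among all genes tested, 15.7% higher and 19.5% lower. Glucocorticoid-induced genes stand at the top with 12 of 22 higher, nuclear transport at the bottom with 47 of 62 lower.

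Among the subunits and regulators of mTORC1 itself, 12 of 49 fell and 3 rose, with a median of -0.05 that changed sign under median-ratio scaling. The kinase gene Mtor had 8.21, 6.88 and 6.45 FPKM with RMC-6272 and 5.72, 5.05 and 5.03 FPKM with vehicle (0.38 ± 0.14, adjusted p = 0.0728). Eif4ebp1, which encodes the translation repressor 4E-BP1, had 46.7, 46.6 and 41.4 FPKM with RMC-6272, against 51.8, 113 and 75.3 FPKM with vehicle (-0.75 ± 0.28, adjusted p = 0.0774). In neither gene did the groups overlap and neither passed the test. Both passed in the fit of 20 libraries (adjusted p = 0.0430 for Mtor and 0.0240 for Eif4ebp1), and Eif4ebp1 passed without vehicle replicate 1 (0.0254). Both also passed with the description codes as a block (0.0337 and 0.0219). The codes differ between the groups and that fit, at a correlation of -0.41, lowers the error, so passing there adds no support. Some of the falls were of genes whose products restrain mTORC1 under stress or amino acid shortage. Others, such as those of Rheb and Rps6kb1, were of genes without that role. Ddit4, the stress-induced inhibitor REDD1, had 7.64, 5.86 and 7.13 FPKM with RMC-6272, against 15.0, 26.2 and 21.1 FPKM with vehicle (-1.44 ± 0.22, adjusted p = 0.00543), but did not pass in the fits of 24 or 20 libraries (adjusted p = 0.116 and 0.101). Castor2, related to the arginine sensor CASTOR1, fell by 1.14 and Sesn3, of the sestrin family that acts with the leucine sensors, by 0.80. The falls of Sesn1, Sesn2, Depdc5, Rheb and Rps6kb1, at 0.53 to 0.64 and named after their values were seen, each failed in at least 3 of the 6 fits that left out 1 library, Sesn1 in all of them. With no filter Depdc5, Rheb and Sesn1 did not pass (adjusted p = 0.109, 0.0694 and 0.0924), nor after median-ratio scaling did Depdc5 and Sesn1 (0.0708 and 0.0625), nor Sesn2 in the fits of 24 and 20 libraries (0.104 and 0.0839). Of the 3 rises, Ulk1, the kinase that starts autophagy, had 18.9, 14.0 and 18.5 FPKM with RMC-6272, against 7.89, 9.04 and 5.92 FPKM with vehicle (1.08 ± 0.20, adjusted p = 0.00836). Flcn, whose product folliculin acts on the lysosomal Rag GTPases and which is named after its value was seen, rose by 0.72. Flcn did not pass in the fit of 24 libraries (adjusted p = 0.152) or without vehicle replicate 3, where 1 rise was left, and without RMC-6272 replicate 2 there were 5. The count of falls was 4 without vehicle replicate 2 or 3, 5 without RMC-6272 replicate 1 and 6 without RMC-6272 replicate 3.

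In the insulin and IGF list, 8 of 38 genes rose and 1 fell. Igfbp1, a secreted IGF-binding protein that insulin represses in liver, had 686, 281 and 336 FPKM with RMC-6272, against 41.6, 56.8 and 29.2 FPKM with vehicle (3.26 ± 0.39, adjusted p = 0.00337). The lowest treated library was well above the highest vehicle library. Sgk1, a kinase of the AKT family that glucocorticoid induces, had 15.8, 12.0 and 17.9 FPKM with RMC-6272, against 2.66, 1.82 and 2.57 FPKM with vehicle (2.27 ± 0.19, adjusted p = 0.00265). Igfbp7 rose by 1.40. Igfbp5 went the other way, with 2.31, 2.46 and 2.65 FPKM with RMC-6272 and 15.7, 12.1 and 23.6 FPKM with vehicle (-2.34 ± 0.23, adjusted p = 0.00277). Irs2, an insulin receptor substrate, had 14.8, 5.99 and 10.7 FPKM with RMC-6272 and 6.92, 4.47 and 6.05 FPKM with vehicle (adjusted p = 0.124), with overlap, and passed without RMC-6272 replicate 2 (adjusted p = 0.0175). Igf2 had 23.4, 6.60 and 15.5 FPKM with RMC-6272 and 17.2, 9.13 and 15.0 FPKM with vehicle (adjusted p = 0.979). The 8 rises became 4 without vehicle replicate 2 or 3 and 5 without vehicle replicate 1 or RMC-6272 replicate 3.

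Receptor tyrosine kinases were split, with 7 of 20 higher and 3 lower. Axl, a receptor for the ligand GAS6, had 39.0, 31.8 and 44.5 FPKM with RMC-6272, against 15.8, 16.3 and 7.71 FPKM with vehicle (1.52 ± 0.29, adjusted p = 0.00990). Epha2 rose by 1.17. Fgfr3, a receptor for fibroblast growth factors, had 0.98, 2.98 and 1.83 FPKM with RMC-6272, against 8.17, 7.91 and 7.07 FPKM with vehicle (-1.63 ± 0.25, adjusted p = 0.00557), and Ryk, which binds Wnt ligands, fell by 0.93. Without vehicle replicate 2 the rises were 4. Axl is also expressed by macrophages and stromal cells, whose markers are given further on.

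Glucocorticoid-induced genes rose in 12 of 22 members and fell in 1, with a median of 1.13 that was 0.77, 1.48 and 0.78 in RMC-6272 replicates 1, 2 and 3. The glucocorticoid receptor controls them in liver, and several are also known to respond to fasting and insulin. Errfi1, an inhibitor of the EGF receptor, had 126, 279 and 107 FPKM with RMC-6272, against 22.3, 14.3 and 13.4 FPKM with vehicle (3.18 ± 0.39, adjusted p = 0.00343). Angptl4, an inhibitor of lipoprotein lipase, had 82.3, 83.8 and 69.4 FPKM with RMC-6272, against 30.0, 38.7 and 34.8 FPKM with vehicle (1.17 ± 0.17, adjusted p = 0.00483). Sgk1 and Igfbp1 belong here too. The member that fell was Ddit4. The count of rises was 10 to 12 when any library was left out.

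The circadian clock list had 5 rises and 2 falls among 22 genes. Per1, a clock repressor that glucocorticoid also induces, had 9.10, 11.3 and 12.6 FPKM with RMC-6272, against 5.16, 5.17 and 4.65 FPKM with vehicle (0.99 ± 0.15, adjusted p = 0.00557). Per2 rose by 1.17 and the transcriptional repressor Bhlhe40 by 1.08, while Nfil3, a repressor of clock output genes, fell by 1.07. Per1 did not pass in the fits of 24 or 20 libraries (adjusted p = 0.0761 and 0.0714), nor Nfil3 in that of 24 (0.0875). Arntl, which encodes the activator BMAL1, was below the filter, at 0.86, 0.34 and 0.52 FPKM with RMC-6272 and 0.34, 0.36 and 0.29 FPKM with vehicle. Without RMC-6272 replicate 2 there were 3 falls, and without replicate 1 or 2 of vehicle, or 1 or 3 of RMC-6272, there was 1. The hour of collection is not given in the labels, so a difference in clock time between groups cannot be told apart from treatment.

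In the network of MYC and its partners, the mouse Myc entry rose and 9 of 24 genes fell. This entry counts reads of the mouse gene and any transgene reads that align to it. It had 6.32, 6.68 and 6.47 FPKM with RMC-6272, against 2.02, 1.73 and 1.14 FPKM with vehicle (1.52 ± 0.16, adjusted p = 0.00285). Myc was the 1 rise, and the falls were 6 to 8 when 1 library was left out. Max had 16.9, 18.3 and 21.0 FPKM with RMC-6272 and 24.4, 30.9 and 30.6 FPKM with vehicle (-0.58 ± 0.17, adjusted p = 0.0324). Max did not pass without replicate 2 or 3 of vehicle (adjusted p = 0.0989 and 0.116) or without replicate 1 or 2 of RMC-6272 (adjusted p = 0.106 and 0.0553), nor with no filter, after quantile normalization or in the fit of 24 libraries (0.0505, 0.115 and 0.164). Both Mxd3 (-1.36) and Mxi1 (-1.32), which encode MAX partners that oppose MYC, fell as well. Ruvbl1, an ATPase of chromatin remodelling complexes, fell to 38.1, 33.9 and 38.4 FPKM with RMC-6272, against 86.1, 122 and 101 FPKM with vehicle (-1.45 ± 0.18, adjusted p = 0.00366; 0.0549 in the fit of 24 libraries).

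The machinery that charges and makes transfer RNA was lower in RMC-6272 tumours. Of 23 genes of cytosolic aminoacyl-tRNA synthetases and their scaffold proteins, which load amino acids onto tRNA, 17 fell, with a median of -0.78. The median was -0.77, -0.82 and -0.67 in the 3 RMC-6272 libraries. Gars, glycyl-tRNA synthetase, had 45.3, 49.5 and 54.0 FPKM with RMC-6272, against 103, 103 and 106 FPKM with vehicle (-1.06 ± 0.15, adjusted p = 0.00465), but did not pass in the fit of 24 libraries (adjusted p = 0.30). Eef1e1 and Aimp2, of the multi-synthetase scaffold, fell by 1.31 and 1.00, and Farsa, a subunit of phenylalanyl-tRNA synthetase, fell by 1.14. Without vehicle replicate 3 the count was 10, without RMC-6272 replicate 1 it was 11, and after quantile normalization 9. Of the 17 mitochondrial synthetases 5 fell (3 without vehicle replicate 2 or 3, or RMC-6272 replicate 1 or 3), led by Yars2, at 10.6, 12.0 and 14.0 FPKM with RMC-6272 and 33.6, 35.9 and 36.0 FPKM with vehicle (-1.46 ± 0.15, adjusted p = 0.00280). Mars2 fell by 0.99.

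RNA polymerases I and III, which transcribe ribosomal RNA and small RNAs such as tRNA, had 18 falls and 1 rise among 36 subunits and factors, with a median of -0.52. Ubtf, the factor that opens ribosomal DNA for polymerase I, had 22.1, 25.6 and 25.1 FPKM with RMC-6272, against 42.5, 54.5 and 48.0 FPKM with vehicle (-0.96 ± 0.16, adjusted p = 0.00649). Polr1b, the second largest subunit of polymerase I, fell by 1.13 (adjusted p = 0.128 in the fit of 24 libraries). Polymerase III has alternative subunits that are mutually exclusive, and they moved in opposite directions. Polr3g, typical of proliferating and stem cells, had 2.89, 2.77 and 3.70 FPKM with RMC-6272, against 8.40, 7.37 and 9.10 FPKM with vehicle (-1.18 ± 0.15, adjusted p = 0.00375). Its counterpart Polr3gl, the list's rise and named after its value was seen, had 15.1, 13.1 and 16.3 FPKM with RMC-6272, against 7.81, 9.57 and 8.81 FPKM with vehicle (0.70 ± 0.15, adjusted p = 0.0132). In RMC-6272 tumours Polr3gl was several times the level of Polr3g per length, while in vehicle tumours their levels were close. The falls were 8 without replicate 2 of vehicle, 7 without its replicate 3, 8 and 11 without replicates 1 and 3 of RMC-6272, and a second rise appeared without RMC-6272 replicate 2.

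Of 68 genes of tRNA modification and processing, 22 fell, with a median of -0.39. The 2 that rose, Nsun3 (0.44) and Trmt12 (0.51), encode enzymes that modify tRNA and are named after their values were seen. Neither passed when any library was left out, nor with no filter (adjusted p = 0.117 and 0.132) or after quantile normalization (0.147 and 0.145). Rpp25, a protein subunit of ribonuclease P, which trims the ends of tRNA precursors, had 2.13, 2.94 and 3.13 FPKM with RMC-6272, against 20.7, 30.4 and 15.8 FPKM with vehicle (-2.60 ± 0.25, adjusted p = 0.00271). Pop1 of the same enzyme fell by 1.52, Thg1l, which adds a base to histidine tRNA, by 1.21, and Tsen15, of the tRNA splicing endonuclease, by 0.95 (adjusted p = 0.0797 in the fit of 24 libraries).

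Most nuclear transport genes fell. Of 62 nucleoporins, importins, exportins and factors of the RAN cycle, 47 fell, with a median of -0.81. Rcc1, the nucleotide exchange factor that loads RAN with GTP, had 14.7, 13.1 and 20.2 FPKM with RMC-6272, against 64.6, 75.7 and 60.8 FPKM with vehicle (-2.02 ± 0.20, adjusted p = 0.00271). Nup107, of the scaffold of the pore, had 9.16, 8.43 and 12.2 FPKM with RMC-6272, against 31.9, 28.2 and 30.5 FPKM with vehicle (-1.53 ± 0.17, adjusted p = 0.00311). Kpna2, an importin alpha, fell by 1.44 and Nutf2, which carries RAN back into the nucleus, by 1.28. Some of these genes, Kpna2 and Rcc1 among them, are also known to follow the cell cycle. The count was 30 without vehicle replicate 3 or RMC-6272 replicate 1, and 31 in the fit of all 24 libraries.

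Splicing factors fell in 50 of 74 members and rose in 1, Mbnl2 (0.72, named after its value was seen), a regulator of alternative splicing in differentiated tissue. The median was -0.79. Snrpa1, a protein of the U2 particle, had 10.6, 11.5 and 13.9 FPKM with RMC-6272, against 33.2, 41.2 and 44.6 FPKM with vehicle (-1.64 ± 0.18, adjusted p = 0.00293). Prmt5, the arginine methyltransferase that modifies Sm proteins, had 18.9, 18.4 and 24.0 FPKM with RMC-6272, against 47.8, 58.8 and 51.9 FPKM with vehicle (-1.33 ± 0.17, adjusted p = 0.00379). Its partner Clns1a fell by 1.15 (adjusted p = 0.264 in the fit of 24 libraries) and Snrnp40 of the U5 particle by 1.51. The falls numbered 29 without vehicle replicate 3, 31 without RMC-6272 replicate 1 and 35 after quantile normalization. Mbnl2 did not pass without replicate 2 or 3 of vehicle or replicate 1 of RMC-6272, and 3 genes rose without RMC-6272 replicate 2.

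Chaperones of the cytosol fell together, in 28 of 48 members of the list of chaperonin and heat shock proteins, with a median of -0.68. Stip1, which passes clients from HSP70 to HSP90, had 65.1, 88.3 and 88.4 FPKM with RMC-6272, against 237, 250 and 252 FPKM with vehicle (-1.61 ± 0.19, adjusted p = 0.00329). Cacybp, which binds HSP90 and other partners, had 29.5, 47.7 and 51.2 FPKM with RMC-6272, against 138, 138 and 165 FPKM with vehicle (-1.79 ± 0.24, adjusted p = 0.00402). Hspa14 fell by 1.32 and the histone chaperone Dnajc9 by 1.49. The count was 15 without vehicle replicate 3 and 17 without RMC-6272 replicate 1.

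In the unfolded protein response of the endoplasmic reticulum, 14 of 44 genes were higher and 3 lower. Dnajb9, a cochaperone induced through IRE1 and XBP1, had 34.5, 28.4 and 22.6 FPKM with RMC-6272, against 9.65, 7.22 and 10.3 FPKM with vehicle (1.55 ± 0.21, adjusted p = 0.00402). Ero1lb, an oxidase of the secretory pathway, rose by 1.06. Ddit3, the stress factor CHOP, had 9.77, 8.32 and 8.59 FPKM with RMC-6272, against 4.94, 4.64 and 4.21 FPKM with vehicle (0.82 ± 0.13, adjusted p = 0.00600). Crebrf, a regulator of that response, rose by 1.08. Hspa5, the main chaperone of the compartment and named after its value was seen, was at 274, 178 and 198 FPKM with RMC-6272 and 215, 190 and 226 FPKM with vehicle (0.02 ± 0.22, adjusted p = 0.941). The 3 falls, also named after their values were seen, were Ero1l (-0.86), Trib3 (-1.09), a pseudokinase induced by ATF4 that did not pass in the fits of 24 or 20 libraries (adjusted p = 0.112 and 0.0750), and Ssr1 (-0.60), which passed in 1 of the 6 fits that left out a library and not after quantile normalization (0.148) or in the fit of 24 libraries (0.0603). The rises were 9 without vehicle replicate 2 and 8 without vehicle replicate 3.

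The list of MiT/TFE factors and V-ATPase covers lysosomal regulators of that family and subunits of the proton pump that acidifies lysosomes. It also holds genes that are neither, such as Mcoln1, Gpnmb and Tpcn1. In it 12 of 37 members rose, and Tpcn1, named after its value was seen, fell by 0.89. Mcoln1, the lysosomal calcium channel TRPML1 and a known target of TFEB, had 6.51, 7.69 and 6.36 FPKM with RMC-6272, against 2.71, 2.56 and 2.26 FPKM with vehicle (1.16 ± 0.14, adjusted p = 0.00329). Mitf itself had 1.45, 1.36 and 1.81 FPKM with RMC-6272, against 0.26, 0.44 and 0.32 FPKM with vehicle (0.92 ± 0.15, adjusted p = 0.00617). Mitf reached the filter only through the RMC-6272 libraries. Atp6v0a1, a subunit of the pump, rose by 1.22. Gpnmb, a glycoprotein that MITF and TFE3 induce, had 36.3, 22.5 and 56.5 FPKM with RMC-6272, against 1.34, 4.56 and 4.30 FPKM with vehicle (3.17 ± 0.43, adjusted p = 0.00414), and it is also a gene of lipid-laden macrophages. Leaving out any library gave 8 to 14 rises, with 8 without vehicle replicate 3.

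**Figure D3:**
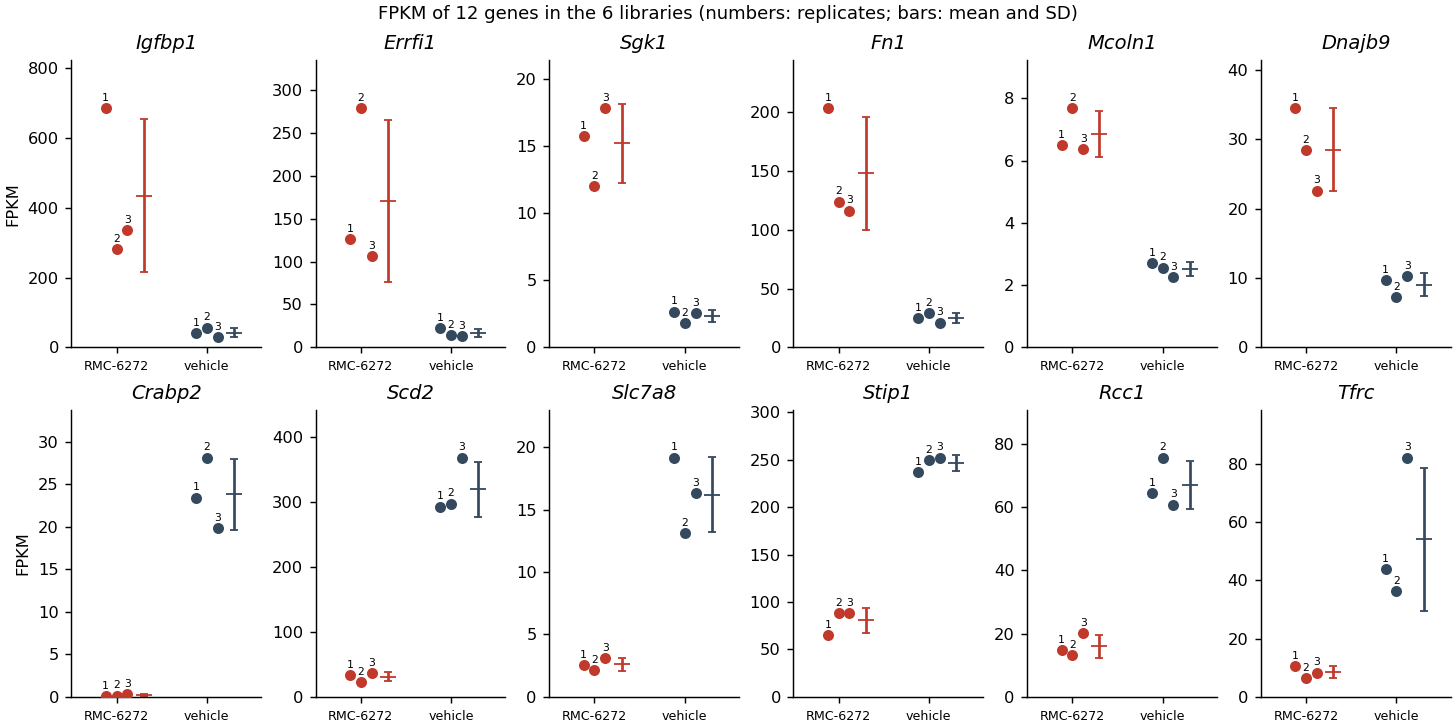
FPKM of 12 genes in each of the 3 RMC-6272 libraries (left in each panel) and the 3 vehicle libraries (right), with replicate numbers and the mean and SD beside the points. The groups do not overlap in any panel, which follows from picking genes that had passed the test. Among all tested genes 52.0% do not overlap. The spread with RMC-6272 is widest for Igfbp1 (686, 281 and 336 FPKM) and Errfi1 (126, 279 and 107 FPKM).

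Both MYC with MAX and the MiT/TFE factors bind the palindrome CACGTG, so promoters were searched for it. Promoter sequences, from 250 bases before to 50 after a gene's start, came from RefSeq on GRCm38.p6 and existed for 9041 of the tested genes. The motif was present in 12.1% of those genes, in 12.9% of 1871 genes that fell, 10.2% of 1462 that rose and 12.3% of 5708 that did not pass. Fallen genes thus held it about as often as genes that did not pass. By list the share ran from 0 of 39 in TGF-beta response and extracellular matrix to 10 of 29 (34.5%) in MiT/TFE factors and V-ATPase, and glucocorticoid-induced genes had 6 of 18. Of 73 named genes that fell and had a promoter, 5 held it. The 3 with the largest falls among them are shown with the motif in capitals, followed by Mcoln1, which was chosen after its values were seen because its promoter holds 2 copies. Smpdl3b is at chr4:132757122-132757141 on the minus strand, a stretch downstream of the start with the motif at base 43. The others give the 250 bases before the start, for Clns1a at chr7:97696407-97696656 on the plus strand, for Pcgf2 at chr11:97699649-97699898 on the minus strand and for Mcoln1 at chr8:3500269-3500518 on the plus strand. A match is a description of these letters and not a site of binding.
Smpdl3b: gttctgcccagaCACGTGgc
Clns1a: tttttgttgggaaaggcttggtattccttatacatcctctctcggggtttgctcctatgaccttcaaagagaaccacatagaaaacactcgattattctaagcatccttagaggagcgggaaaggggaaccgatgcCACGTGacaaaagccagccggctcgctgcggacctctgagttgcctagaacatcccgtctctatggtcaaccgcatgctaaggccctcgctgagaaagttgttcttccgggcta
Pcgf2: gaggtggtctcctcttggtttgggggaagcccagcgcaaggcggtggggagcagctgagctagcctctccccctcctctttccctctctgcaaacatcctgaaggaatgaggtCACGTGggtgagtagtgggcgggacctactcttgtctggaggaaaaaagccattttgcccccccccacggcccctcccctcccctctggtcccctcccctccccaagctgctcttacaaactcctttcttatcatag
Mcoln1: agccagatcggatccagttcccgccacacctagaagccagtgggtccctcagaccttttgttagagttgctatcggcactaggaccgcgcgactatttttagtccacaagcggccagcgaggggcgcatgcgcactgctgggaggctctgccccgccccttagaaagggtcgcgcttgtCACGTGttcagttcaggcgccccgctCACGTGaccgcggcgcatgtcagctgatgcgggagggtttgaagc

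Of 38 amino acid carriers 10 fell and 7 rose, shares near the background, with a median of -0.13. Slc7a8, which exchanges large neutral amino acids, had 2.54, 2.15 and 3.14 FPKM with RMC-6272, against 19.2, 13.1 and 16.3 FPKM with vehicle (-2.25 ± 0.18, adjusted p = 0.00259). Slc1a5, a glutamine carrier, had 9.01, 8.66 and 11.1 FPKM with RMC-6272, against 32.7, 41.7 and 37.1 FPKM with vehicle (-1.85 ± 0.16, adjusted p = 0.00267). Slc16a10, a carrier of aromatic amino acids, fell by 2.29 and Slc7a3, of cationic amino acids, by 1.52. Slc7a5, which mTORC1 activity depends on for leucine uptake in many cells and which is named after its value was seen, ranged between 9.92 and 16.4 FPKM with RMC-6272, against 53.5 to 61.5 FPKM with vehicle (-2.14 ± 0.21, adjusted p = 0.00271). Rises, named after their values were seen, included the lysosomal and endosomal carriers Slc36a1 (1.00), Slc36a4 (0.80) and Slc38a7 (0.90). Slc36a4 did not pass in the fit of 24 libraries (adjusted p = 0.0592), nor Slc36a1 with no filter (0.0596). Slc36a1 also did not pass without replicate 2 or 3 of vehicle or replicate 1 or 3 of RMC-6272. Without vehicle replicate 2 or 3 the rises were 2 and 3, without vehicle replicate 1 they were 4, and without RMC-6272 replicate 1 or 3 they were 3, while the falls numbered 8 to 13.

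Among 28 carriers of sugars, lactate, vitamins and nucleosides, 5 fell and 4 rose. Slc2a1, the glucose carrier GLUT1, had 2.80, 2.66 and 1.98 FPKM with RMC-6272, against 11.6, 16.1 and 9.92 FPKM with vehicle (-1.94 ± 0.20, adjusted p = 0.00280). Slc2a2, the GLUT2 carrier of hepatocytes and named after its value was seen, rose by 1.59. Slc2a1 did not pass in the fit of 24 libraries (adjusted p = 0.0568), nor Slc2a2 with no filter (0.0620). Slc5a6, a vitamin carrier, fell by 1.11, Slc29a2, a nucleoside carrier, by 1.29, and Slc37a2, a sugar phosphate carrier abundant in macrophages, rose by 1.21. The 4 rises became 1 without vehicle replicate 2 or 3, where Slc2a2 was lost, and 2 without vehicle replicate 1 or RMC-6272 replicate 3.

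In central metabolism, 11 of 35 genes of the tricarboxylic acid cycle and pyruvate entry fell and 2 rose. Pdk4, the kinase that shuts pyruvate dehydrogenase during fasting, had 19.9, 21.0 and 18.7 FPKM with RMC-6272, against 1.09, 0.58 and 0.35 FPKM with vehicle (3.67 ± 0.18, adjusted p = 0.000523). Cs, citrate synthase, had 14.0, 22.6 and 15.9 FPKM with RMC-6272, against 56.0, 59.4 and 58.0 FPKM with vehicle (-1.70 ± 0.20, adjusted p = 0.00329). Acly, which splits citrate in the cytosol for lipid synthesis, fell by 1.24, and Idh3a, of the mitochondrial isocitrate dehydrogenase, by 1.30. The list's median was -0.19, and it differed in sign between libraries, at -0.38, 0.19 and -0.23 in RMC-6272 replicates 1, 2 and 3. The other rise, Me1, malic enzyme, was 1.64 and is named after its value was seen. The falls were 7 without vehicle replicate 2 or 3, and Me1 did not pass with no filter, in the fit of 24 libraries (adjusted p = 0.0869 and 0.158), or without replicate 2 or 3 of vehicle or replicate 2 or 3 of RMC-6272.

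The respiratory chain showed few differences that passed. None of 36 complex I genes passed in limma, 1 had an unadjusted p under 0.05, and the medians of RMC-6272 replicates 1, 2 and 3 were -0.31, 0.40 and -0.42. Ndufv2 had 61.1, 102 and 77.5 FPKM with RMC-6272 and 111, 119 and 181 FPKM with vehicle (-0.76 ± 0.27, adjusted p = 0.0675). Without RMC-6272 replicate 2, Ndufv2 and Ndufab1 passed (adjusted p = 0.0366 and 0.0420), and Ndufv2 passed in the fit of 20 libraries (0.0330). It also passed with the codes as a block (0.0273), a fit that lowers the error and so adds no support. After quantile normalization 2 complex I genes were called higher. In complexes II to V and cytochrome c, 2 of 40 fell, Cycs (-1.16), the electron carrier cytochrome c, and Sdhd (-0.81; adjusted p = 0.0910 in the fit of 24 libraries) of complex II. That count was 6 without RMC-6272 replicate 2, and neither gene passed without replicate 2 or 3 of vehicle or replicate 1 or 3 of RMC-6272.

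Mitochondrial import had 16 falls among 45 genes of translocases and mitochondrial chaperones, with a median of -0.50. Tomm5, a small subunit of the outer membrane channel, had 70.1, 94.4 and 88.1 FPKM with RMC-6272, against 216, 343 and 298 FPKM with vehicle (-1.74 ± 0.23, adjusted p = 0.00402). Tomm22, a receptor of the same complex, had 43.6, 68.0 and 55.3 FPKM with RMC-6272, against 106, 139 and 147 FPKM with vehicle (-1.23 ± 0.23, adjusted p = 0.00873). Tomm34 and Tomm20 fell by 0.88 and 0.81, Tomm20 without passing in the fit of 24 libraries (adjusted p = 0.116). The difference between this list and the respiratory chain lists was not tested. Falls numbered 6 without vehicle replicate 3 or RMC-6272 replicate 1 and 8 without vehicle replicate 2.

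The pentose phosphate pathway, which makes ribose and NADPH, had 10 falls and 3 rises among 17 genes, with a median of -0.72. Pgd, its second dehydrogenase, had 13.4, 11.4 and 12.2 FPKM with RMC-6272, against 34.8, 43.8 and 52.2 FPKM with vehicle (-1.72 ± 0.18, adjusted p = 0.00293). Tkt, transketolase, fell by 1.37 and G6pdx, glucose-6-phosphate dehydrogenase, by 1.23. H6pd, the form of that enzyme in the endoplasmic reticulum, rose, with 49.1, 72.7 and 32.0 FPKM with RMC-6272, against 16.0, 12.0 and 9.94 FPKM with vehicle (1.88 ± 0.32, adjusted p = 0.00676). Falls numbered 6 without vehicle replicate 3 and 5 without RMC-6272 replicate 1, and H6pd was the 1 rise left without vehicle replicate 2 or 3.

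Lipid lists were mixed. In sphingolipid and phospholipid synthesis and breakdown, 14 of 56 rose and 12 fell. Smpdl3b, a membrane phosphodiesterase related to acid sphingomyelinase, had 2.79, 1.74 and 2.99 FPKM with RMC-6272, against 22.8, 22.2 and 26.8 FPKM with vehicle (-2.85 ± 0.19, adjusted p = 0.00222). Smpd4, a sphingomyelinase, fell by 1.14 and Lpcat4, an acyltransferase, by 1.35, while Sgpl1, which cleaves sphingosine phosphate, rose by 0.88. In the list of peroxisome genes 7 of 28 rose and 1, Abcd4, fell (-1.66). Abcd4 is of the same family as Abcd2, but its product is not a peroxisomal transporter. The list's median was 0.12, 0.80 and 0.04 in RMC-6272 replicates 1, 2 and 3. Abcd2, a transporter that brings very long chain fatty acids into peroxisomes, had 9.21, 10.2 and 6.95 FPKM with RMC-6272, against 0.96, 0.72 and 0.50 FPKM with vehicle (2.50 ± 0.18, adjusted p = 0.00222). Pex11g, which acts in peroxisome division, rose by 1.52. The sphingolipid and phospholipid rises were 9 without vehicle replicate 3 and 8 without RMC-6272 replicate 1, and its falls 6 and 7 there and 7 without vehicle replicate 2.

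Genes of iron handling rose in 10 of 42 members and fell in 5. Tfrc, the receptor that takes up iron-loaded transferrin, had 10.5, 6.45 and 8.33 FPKM with RMC-6272, against 43.9, 36.4 and 82.1 FPKM with vehicle (-2.48 ± 0.32, adjusted p = 0.00389). Slc39a14, a carrier of iron not bound to transferrin, had 21.6, 23.1 and 17.5 FPKM with RMC-6272, against 7.32, 5.93 and 5.30 FPKM with vehicle (1.60 ± 0.17, adjusted p = 0.00293). The metalloreductases Steap1 (-1.39) and Steap2 (-1.24) fell. Fth1, the ferritin heavy chain, had 3005, 3058 and 2444 FPKM with RMC-6272, against 1023, 1528 and 1169 FPKM with vehicle (1.21 ± 0.25, adjusted p = 0.0127), and did not pass without vehicle replicate 3 or RMC-6272 replicate 1 (adjusted p = 0.0532 and 0.0546), with no filter, or in the fits of 24 or 20 libraries (0.170, 0.159 and 0.0520). Red cell markers summed to 115 to 226 FPKM with RMC-6272 and 144 to 483 FPKM with vehicle, with Tfrc among them, and their part in the fall of Tfrc was not tested. The rises were 4 without vehicle replicate 2, 3 without vehicle replicate 3 and 6 without RMC-6272 replicate 1.

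Antioxidant genes of the NRF2 list, where 6 of 48 rose and 5 fell, stayed under the background in both directions. Gstt2, a glutathione transferase, had 45.2, 34.8 and 24.2 FPKM with RMC-6272, against 4.36, 5.00 and 4.30 FPKM with vehicle (2.64 ± 0.23, adjusted p = 0.00267). Gstm3 went down (-2.57 ± 0.49, adjusted p = 0.00917) and Cbr3, a carbonyl reductase, up by 0.86 (adjusted p = 0.0984 and 0.0954 in the fits of 24 and 20 libraries). Medians of the list were 0.02, 0.66 and -0.22 in RMC-6272 replicates 1, 2 and 3, and without replicate 2 the list's median changed sign and 9 genes fell. Without vehicle replicate 3 or RMC-6272 replicate 1, 2 rose and 2 fell, and 3 fell without replicate 1 or 2 of vehicle or replicate 3 of RMC-6272.

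Transcription factors of hepatocytes rose in 19 of 47 members, with a median of 0.58, and Srebf1 (-0.77) and Srebf2 (-0.89), the regulators of lipid synthesis, fell and are named after their values were seen. Creb3l3, a membrane-bound factor of liver that responds to fasting, had 238, 207 and 197 FPKM with RMC-6272, against 48.2, 47.0 and 30.8 FPKM with vehicle (2.35 ± 0.22, adjusted p = 0.00271). Cebpa, which drives hepatocyte differentiation and restrains division, had 253, 278 and 217 FPKM with RMC-6272, against 94.4, 108 and 91.7 FPKM with vehicle (1.33 ± 0.18, adjusted p = 0.00402). Its relatives Cebpg (0.92) and Cebpd (1.38) rose too, but neither passed in the fit of 24 libraries (adjusted p = 0.0685 and 0.0926), nor Cebpd in that of 20 (0.0739). RMC-6272 replicate 2 was not the highest library for Creb3l3, although it was for Cebpa. The rises were 10 without vehicle replicate 2 and 12 without vehicle replicate 3 or RMC-6272 replicate 1. Srebf1 did not pass without replicate 2 or 3 of vehicle or replicate 3 of RMC-6272, after quantile normalization, or in the fits of 24 or 20 libraries (adjusted p = 0.0580, 0.201 and 0.0619 in the last 3).

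Oncofetal and progenitor genes split in 2 directions, with 18 of 52 lower and 10 higher. Crabp2, which carries retinoic acid to its receptor, had 0.11, 0.16 and 0.34 FPKM with RMC-6272, against 23.4, 28.2 and 19.9 FPKM with vehicle (-4.35 ± 0.17, adjusted p = 0.000217). L1td1, an RNA-binding protein of pluripotent cells, had 0.22, 0.04 and 0.20 FPKM with RMC-6272, against 14.0, 10.5 and 12.9 FPKM with vehicle (-3.54 ± 0.16, adjusted p = 0.000254). Both genes were close to undetected in every treated library. Scd2, a fatty acid desaturase of fetal liver, had 34.0, 22.8 and 37.2 FPKM with RMC-6272, against 293, 297 and 368 FPKM with vehicle (-3.33 ± 0.23, adjusted p = 0.00222). Krt7, a keratin of bile duct cells, fell by 2.40. Gpc3, a cell surface proteoglycan used as a marker of liver cancer, moved up, with 48.6, 28.6 and 22.0 FPKM with RMC-6272, against 3.06, 4.51 and 3.23 FPKM with vehicle (2.83 ± 0.29, adjusted p = 0.00280). Among imprinted members Phlda2, which limits placental growth, had 4.32, 3.73 and 7.58 FPKM with RMC-6272 and 47.4, 127 and 75.2 FPKM with vehicle (-3.70 ± 0.39, adjusted p = 0.00281), while the noncoding RNA Meg3 had 47.8, 11.2 and 30.6 FPKM with RMC-6272 and 2.06, 2.57 and 1.83 FPKM with vehicle (3.08 ± 0.47, adjusted p = 0.00530). The rises were 6 without vehicle replicate 2 or RMC-6272 replicate 3.

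Regulators of DNA methylation and Polycomb fell in 12 of 39 members, and Phf1 alone rose, by 1.07. Epop, which binds Polycomb repressive complex 2 and elongin, had 1.57, 1.37 and 1.93 FPKM with RMC-6272, against 11.6, 31.5 and 15.9 FPKM with vehicle (-2.87 ± 0.33, adjusted p = 0.00329). Uhrf1, which guides maintenance methylation and follows S phase, had 10.8, 9.08 and 16.1 FPKM with RMC-6272, against 42.5, 48.3 and 38.6 FPKM with vehicle (-1.80 ± 0.22, adjusted p = 0.00366). Pcgf2, of Polycomb repressive complex 1, fell by 1.15. Without RMC-6272 replicate 3 the rises were 2.

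Of 35 targets of p53, 14 fell and 2 rose. Gtse1 (-1.54) and Ckap2 (-1.49) are known as genes of mitosis, and Gtse1 had 6.57, 5.42 and 8.62 FPKM with RMC-6272, against 22.1, 22.5 and 20.3 FPKM with vehicle. Pmaip1, the BH3-only protein NOXA that favours cell death, fell by 0.99. Plk3, a stress kinase, had 18.5, 23.7 and 14.3 FPKM with RMC-6272, against 6.90, 6.90 and 6.30 FPKM with vehicle (1.34 ± 0.20, adjusted p = 0.00483). Neither Pmaip1 (adjusted p = 0.0691 and 0.0651) nor Plk3 (0.0622 and 0.0582) passed in the fits of 24 and 20 libraries. Cdkn1a, the p21 inhibitor of the cell cycle and named after its value was seen, had 28.3, 41.6 and 26.9 FPKM with RMC-6272 and 36.1, 45.3 and 28.8 FPKM with vehicle (adjusted p = 0.582), with overlap. The 14 falls became 6 to 9 without any of the libraries other than RMC-6272 replicate 2, where 11 passed.

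Genes of the BCL2 family and of cell death rose in 12 of 48 members and fell in 6. Bcl2l11, the BH3-only protein BIM that promotes death, had 8.51, 6.62 and 8.09 FPKM with RMC-6272, against 2.42, 2.16 and 1.99 FPKM with vehicle (1.45 ± 0.14, adjusted p = 0.00271). Bcl2l1, the survival protein BCL-XL, also rose, with 13.6, 15.7 and 12.9 FPKM with RMC-6272, against 6.73, 6.42 and 6.49 FPKM with vehicle (0.99 ± 0.13, adjusted p = 0.00402), but did not pass in the fits of 24 or 20 libraries (adjusted p = 0.0913 and 0.0753). Birc5, survivin, which acts in mitosis, fell by 1.95. Without vehicle replicate 2 or 3 the rises were 7. In the list of Wnt and YAP targets 6 of 26 rose and 4 fell, with Amotl2, a binder of YAP, at 8.55, 6.55 and 5.85 FPKM with RMC-6272, against 2.12, 1.83 and 2.08 FPKM with vehicle (1.40 ± 0.16, adjusted p = 0.00326), and Tead2, a YAP partner, lower by 0.95. Amotl2 did not pass in the fit of 24 libraries (adjusted p = 0.0566). Those rises were 3 without vehicle replicate 3 or RMC-6272 replicate 3.

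Extracellular matrix and TGF-beta response genes rose in 21 of 59 members, with a median of 0.61. Fn1, fibronectin, which hepatocytes and stromal cells both make, had 204, 124 and 116 FPKM with RMC-6272, against 24.6, 29.0 and 21.1 FPKM with vehicle (2.49 ± 0.26, adjusted p = 0.00280). Mmp12, the elastase of macrophages, had 25.1, 29.2 and 48.0 FPKM with RMC-6272, against 4.07, 3.68 and 3.28 FPKM with vehicle (2.86 ± 0.25, adjusted p = 0.00265). Col18a1 rose by 1.47 and the cytokine Tgfb1 by 1.40. The fibrillar collagen Col1a1, named after its value was seen, had 23.9, 44.3 and 23.2 FPKM with RMC-6272 and 12.6, 15.1 and 44.4 FPKM with vehicle (adjusted p = 0.468). The rises were 13 without vehicle replicate 2. Nid2, nidogen 2 and named after its value was seen, was the fall (-1.03; adjusted p = 0.237 in the fit of 24 libraries), and a second gene fell without replicate 3 of either group. Stellate cell and fibroblast markers summed to 95.7 to 180 FPKM with RMC-6272 and 50.9 to 123 FPKM with vehicle, 3 of the 11 tested were higher, and their part in these rises was not tested.

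Chemokines and cytokines rose in 22 of 52 members and fell in 3, with a median of 0.59. Csf1, the growth factor of macrophages, had 4.20, 5.32 and 4.48 FPKM with RMC-6272, against 1.12, 0.89 and 0.91 FPKM with vehicle (1.52 ± 0.14, adjusted p = 0.00271). Il1rn, the antagonist of the interleukin 1 receptor, had 15.3, 6.41 and 8.21 FPKM with RMC-6272, against 1.22, 1.23 and 1.43 FPKM with vehicle (2.18 ± 0.28, adjusted p = 0.00388). Ccl9 rose by 2.04 (adjusted p = 0.0985 in the fit of 24 libraries) and Cxcl16, a ligand of CXCR6, by 1.41. Of 58 interferon-stimulated genes 2 rose, Irf5 (1.44) and Stat2 (0.92), and 5 fell, shares under the background in both directions. The falls among them included Bst2, which tethers virus particles, at 161, 203 and 85.8 FPKM with RMC-6272 and 275, 414 and 354 FPKM with vehicle (-1.28 ± 0.35, adjusted p = 0.0283), and Ifi27l2a (-1.49). Neither Bst2 nor Ifi27l2a passed without replicate 2 of vehicle or replicate 1 or 3 of RMC-6272, nor did Bst2 without vehicle replicate 3 or Ifi27l2a without vehicle replicate 1. With no filter and in the fit of 24 libraries Bst2 had an adjusted p of 0.0757 and 0.420 and Ifi27l2a of 0.0779 and 0.0807, Ifi27l2a also did not pass in the fit of 20 (0.0563), and no interferon-stimulated gene fell without vehicle replicate 2 or RMC-6272 replicate 3. Without vehicle replicate 1 that count was 1 and without RMC-6272 replicate 2 it was 2, and Stat2 did not pass without vehicle replicate 3. Chemokine and cytokine rises were 14 without vehicle replicate 2, and the falls were 6 without vehicle replicate 1 and 1 without replicate 2 of vehicle or replicate 1 or 3 of RMC-6272.

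Marker sums of some other cell types were higher with RMC-6272, while those of others overlapped between the groups. The 13 macrophage markers summed to 890 to 1070 FPKM with RMC-6272, against 314 to 370 FPKM with vehicle, and 5 of the 11 tested were higher. Lyz2, which made up most of that sum, had 859, 671 and 729 FPKM with RMC-6272, against 204, 275 and 266 FPKM with vehicle (1.60 ± 0.21, adjusted p = 0.00402). The tested members with a negative difference were Timd4 (-0.91 ± 0.36, adjusted p = 0.0921) and Marco (-0.23 ± 0.69, adjusted p = 0.821). Cd163, under the filter, lay below every vehicle library. Trem2, a receptor of lipid-handling macrophages, was higher (2.56 ± 0.36, adjusted p = 0.00430), whereas Clec4f, a marker of Kupffer cells, spread from 1.71 to 35.8 FPKM with RMC-6272 and from 0.12 to 20.6 FPKM with vehicle. The 10 neutrophil markers summed to 12.1 to 46.3 FPKM with RMC-6272, against 1.63 to 3.37 FPKM with vehicle. Ly6g was at 0 in all 6 libraries, Cxcr2 overlapped between the groups, and the other 8 lay above every vehicle library. The 4 tested were all higher, but they reached the filter only through the RMC-6272 libraries, which largely fixed that count. Of the markers called higher in other lists, Tek, Itgax, Jchain and Pdgfra also reached the filter only through the RMC-6272 libraries. Endothelial markers summed to 37.5 to 56.1 FPKM with RMC-6272 and 15.4 to 33.0 FPKM with vehicle, with 3 of 10 higher. Dendritic cell markers summed to 5.81 to 8.06 FPKM with RMC-6272 and 2.31 to 3.46 FPKM with vehicle, with 1 of 2 higher. B and plasma cell markers summed to 43.0 to 90.8 FPKM with RMC-6272 and 31.5 to 38.0 FPKM with vehicle, with 1 of 3 higher. The sums of T and NK cell markers overlapped, at 6.88 to 7.64 FPKM with RMC-6272 and 6.77 to 8.93 FPKM with vehicle, and none of the 3 tested passed in limma, 0 at an unadjusted p under 0.05. Among those 15 markers Cd3d, Cd3e and Cd2 lay above every vehicle library and Lck, Gzmb and Prf1 below, and of these 6 Lck alone reached the filter and was tested (adjusted p = 0.248). Bile duct markers also overlapped, at 32.8 to 44.6 FPKM with RMC-6272 and 34.2 to 58.3 FPKM with vehicle, with 1 of 5 lower. Markers of hepatocytes, the labelled origin of the tumours, were present in all libraries and summed to 9250 to 25000 FPKM with RMC-6272, against 3200 to 5740 FPKM with vehicle. Of the 10 tested, 6 were higher, while Hnf4a, Ttr, Tat and Asgr1 did not pass (adjusted p = 0.277, 0.0745, 0.376 and 0.172). Alb alone had 5550, 12900 and 3770 FPKM with RMC-6272 and 2850, 1420 and 732 FPKM with vehicle. How far these markers account for the gene lists was not tested.

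**Figure D4:**
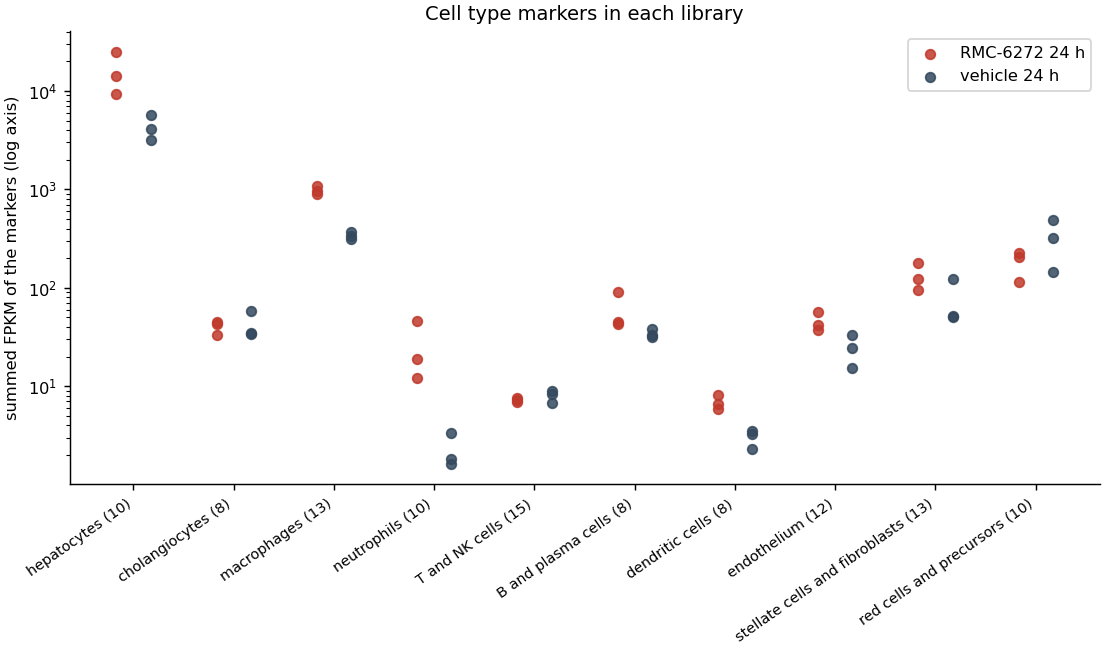
Summed FPKM of cell type markers (y axis, log scale) in each RMC-6272 library (left of each pair) and each vehicle library (right), with the number of markers in brackets. Macrophage markers, mostly Lyz2, stand at 890 to 1070 FPKM with RMC-6272 and 314 to 370 FPKM with vehicle, while the sums of T and NK cell markers overlap.

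Outside the cell cycle, liver and MYC-linked lists, the largest rises were Ltb, Lcn2, Akr1c18, Igfbp1, Errfi1, Gpnmb, Vnn3, Meg3, Urad, Pla1a, Ocstamp, Mmp12, Cyp4a32, Fam20a and Gpc3, at 3.48 to 2.83. Ltb, the membrane cytokine lymphotoxin beta, had 279, 66.8 and 46.7 FPKM with RMC-6272, against 3.92, 11.8 and 9.34 FPKM with vehicle (3.48 ± 0.68, adjusted p = 0.0104). Lcn2, an iron-trapping protein that hepatocytes make in inflammation, had 42.9, 209 and 28.8 FPKM with RMC-6272 and 11.6, 4.32 and 1.94 FPKM with vehicle (3.48 ± 0.81, adjusted p = 0.0176). Ocstamp, a fusion protein of osteoclasts and macrophages, had 12.7, 6.01 and 9.15 FPKM with RMC-6272, against 0.32, 0.39 and 0.23 FPKM with vehicle (2.92 ± 0.24, adjusted p = 0.00265). Spread within the treated group was wide for Ltb and Lcn2, in different libraries, and narrower for Ocstamp. Akr1c18, a steroid reductase, and Cyp4a32, a fatty acid hydroxylase, belong to families of near-identical copies between which reads may be split. Lcn2, Akr1c18 and Cyp4a32 did not pass with no filter (adjusted p = 0.0560, 0.0780 and 0.0865), nor Cyp4a32 with robust eBayes (0.0515). Lcn2 did not pass without vehicle replicate 2 or 3. Akr1c18 did not without replicate 1 or 2 of vehicle or replicate 1 or 3 of RMC-6272, nor Cyp4a32 without replicate 2 or 3 of vehicle or replicate 3 of RMC-6272 (adjusted p at most 0.0892).

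The largest falls outside the same lists were Crabp2, Phlda2, L1td1, Scd2, Epop, Smpdl3b, Fabp3, Rpp25, Gstm3, Fam81a, Nrtn, Tff3, Tfrc, Prr7 and Krt7, at -4.35 to -2.40. All 15 passed whichever single library was left out. Fabp3, a fatty acid binding protein of heart muscle, had 15.0, 15.6 and 9.48 FPKM with RMC-6272, against 57.0, 96.3 and 137 FPKM with vehicle (-2.71 ± 0.35, adjusted p = 0.00379; 0.0666 and 0.0517 in the fits of 24 and 20 libraries). Tff3, a secreted trefoil peptide of mucous epithelia, had 3.32, 3.81 and 1.96 FPKM with RMC-6272, against 12.2, 28.3 and 29.1 FPKM with vehicle (-2.52 ± 0.36, adjusted p = 0.00452). Nrtn, neurturin, a ligand of the GDNF family, had 9.33, 6.89 and 5.19 FPKM with RMC-6272, against 22.0, 78.3 and 52.8 FPKM with vehicle (-2.54 ± 0.45, adjusted p = 0.00774). Levels among vehicle libraries differed several-fold in Nrtn and Phlda2.

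Across the other groups of the series the same 30 genes were set beside the vehicle libraries without a test, since all groups share those libraries. These genes were chosen on the 24 h libraries, so their 24 h levels are set by that choice, and a group of 1 library lies beyond vehicle more easily than a group of 3. In the single RMC-6272 library at 12 h, 15 of the 15 rises lay above every vehicle library and 14 of the 15 falls below, Nrtn being the exception. At 48 h all 3 libraries lay beyond vehicle for 9 of 15 rises and 13 of 15 falls, and at 72 h for 8 and 5. Crabp2 shows the order of levels. It was at 0.13 FPKM at 12 h, at 0.11, 0.16 and 0.34 FPKM at 24 h, at 0.43, 5.16 and 1.14 FPKM at 48 h, and at 1.16, 9.56 and 0.13 FPKM at 72 h, against 19.9 to 28.2 FPKM with vehicle. The library of 72 h replicate 2 was the nearest to vehicle in Crabp2 and L1td1. With RMC-4627, another inhibitor of mTORC1, 6 of 15 rises and 10 of 15 falls lay beyond vehicle in both libraries, and with doxycycline, which turns the transgene off, 8 and 12. Those 4 columns show no single-read steps, unlike the rest, so levels set across them may differ in how they were computed. Tfrc was at 140 and 131 FPKM with doxycycline and at 141 and 47.9 FPKM with RMC-4627, above the RMC-6272 tumours in each case. Gpnmb was listed at or under 0.03 FPKM in all 4 of those libraries. With sorafenib, at 4, 24 and 48 h, 0, 2 and 2 of the 15 rises and 1, 8 and 5 of the 15 falls lay beyond vehicle in all libraries of the group.

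**Figure D5:**
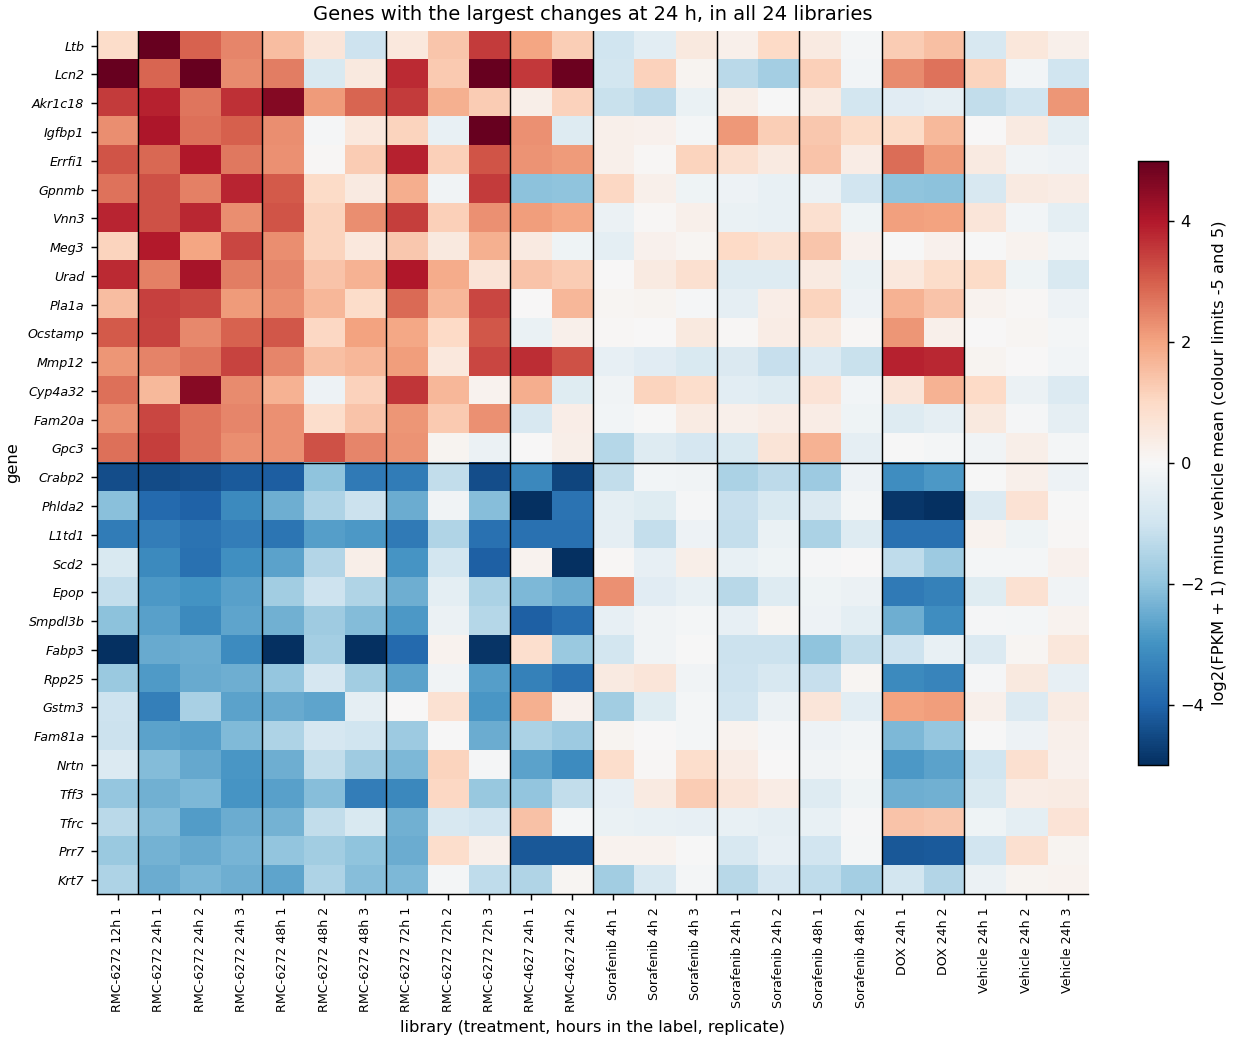
Difference of log2(FPKM + 1) from the vehicle mean (colour) for the 15 largest rises (upper rows) and 15 largest falls (lower rows) in each of the 24 libraries, ordered by treatment and hour with vehicle at the right. The genes were chosen on the 24 h RMC-6272 libraries, which fixes what those columns show. Crabp2 and L1td1 lie nearer to vehicle in 72 h replicate 2 than in the other 72 h libraries.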

How the data were processed

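The deposited table gives FPKM per gene. Per the submitters' processing notes the authors used STAR 2.5, HTSeq 0.6.1 and the build mm9. The annotation, the handling of shared reads and the use of strand are not given in the sources used here, so antisense and near-identical genes are uncertain. Gene names were used, because identifiers and names differed in 1559 of 54532 entries. Left out were 27 entries with a date as name and 102 with a repeated symbol. Lengths by name turned 98.4 to 98.7% of low values in the 6 libraries compared into whole reads (within 0.02, up to 20 reads), which gave the read totals; these cover counting error only. Libraries of a group differed by far more than counting noise (chi-square per degree of freedom 62.9 to 335).

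Values of log2(FPKM + 1) were fitted with limma 3.58.1 (lmFit, eBayes with trend) in R 4.3.3 on the 6 libraries, two-sided, with Benjamini-Hochberg adjusted p under 0.05 over 12429 genes. The script was tested on simulated data. The 35 gene lists, 10 marker lists and the comparison were chosen with earlier results of these data known, and lists were described without a set test. Named genes were the 15 largest rises and 15 largest falls past the threshold, without overlap and with a mean of at least 5 FPKM in the higher group, up to 4 members of each list with the smallest p, and Myc, Max, Mtor, Eif4ebp1, Igf2, Irs2, Tfrc, Arntl and Per1. Some of the genes this rule selects are not reported here. Left out of the first part were genes of cell cycle, liver and MYC-linked biosynthesis lists, gene models with no name, Mup genes, pseudogenes and segments of antigen receptors. Alternatives changed the pseudocount, filter, scaling, variance model, libraries fitted and blocks, and left out each library in turn.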

Additional observations from a re-analysis of the deposited data

How the results depend on the processing

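Against 4374 genes changed (1955 higher, 2419 lower), the count was 2541 to 4314 when 1 library was left out (1120 to 1992 higher, 1384 to 2322 lower). A filter of 5 FPKM in at least 3 libraries, which tested 7131 genes, gave 1021 higher and 1992 lower, and there the median over all genes was -0.17; with no filter 1569 and 1869 of 28078 passed. The other settings stayed within 1.5 times: pseudocount 0.1 gave 4403, median-ratio scaling 4313 (2181 higher, 2132 lower), quantile normalization 4099, eBayes without trend 4357, robust eBayes 4381, and fits of 24 and 20 libraries 3168 and 4806. With the replicate number as a block 3080 genes passed, but the numbers do not pair the samples: deviations of same-numbered libraries correlated at -0.37, -0.12 and 0.19. With description codes as a random block 6137 passed, at a fitted correlation of -0.41, so that fit lowers the error. Of 148 genes selected by the naming rule that passed, 118 did so under every alternative that tested them, and none passed in the opposite direction. That count leaves out the genes named after their values were seen. Many of those, such as Sesn1 and Me1, did not pass under at least 1 alternative. Among list counts, 119 moved by over 1.5 times and 301 did not when 1 library was left out, against 126 and 644 under the other settings. Groups of 3 limit what the spread can show, and without molecular identifiers PCR copies of one molecule count as separate reads.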
